A study of Homo sapiens with 6 samples.

Results

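Genes with a LINC symbol (long intergenic noncoding RNA) that had a measurable level in PANC-1 cells are described together. A gene was a member when its name in the deposited table starts with LINC and the mean of its TPM (the share of transcripts, scaled within each library) over the 6 samples was 0.5 or more. Of the 62703 genes in the table, 2260 had such a name, 917 of these had a TPM above 0 in at least 1 sample, and 192 reached the level. The members were thus selected on their mean TPM, so their level is a description and was not tested. Because LINC02256 stands in the table under 2 identifiers, the 192 genes carry 191 names. RNA was sequenced from PANC-1, an established human cell line from a pancreatic ductal carcinoma. The 3 control samples (DKK1-SE+/+) kept e1, the part of a super-enhancer near DKK1 to which the study assigns most of its activity, and in the 3 DKK1-SE-/- samples Cas9 had deleted it homozygously. The DKK1-SE-/- samples all derive from a single edited subclone, so the p-values given here measure the spread between these samples, and the deletion and other traits of that clone cannot be told apart. Expected counts (reads estimated per gene) summed to 21822314, 16475810 and 18803154 for the controls, replicates 1 to 3, and to 17359835, 20098086 and 17804764 for DKK1-SE-/-, replicates 1 to 3. Values of a gene are given in the same order of replicates.

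A LINC symbol is given by position, to a transcript that lies between protein-coding genes and has no better name, and it says nothing about function. Such RNAs are often spliced and polyadenylated like mRNAs, are usually less abundant, and are often limited to few tissues. Some act on the chromatin or transcription of genes beside them, some bind proteins or carry microRNAs, and several have been studied in pancreatic cancer as RNAs that go up or down in tumours.

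The labels were checked on DKK1, the gene that the deleted enhancer acts on. DKK1 (ENSG00000107984, chr10:52314281-52318042, plus strand) had 229, 246 and 199 TPM in the control samples and 66.8, 79.8 and 82.7 TPM in the DKK1-SE-/- samples. Every DKK1-SE-/- sample lay far below every control sample (log2 fold change -1.45, SE 0.11, adjusted p = 6.16e-06). Among the epithelial markers, KRT8 had 936, 948 and 988 TPM in control and 1649, 1668 and 1362 TPM in DKK1-SE-/- samples. The mesenchymal marker VIM had 3746, 4210.3 and 4522 TPM in control and 2819, 2534 and 2700.4 TPM in DKK1-SE-/- samples. KRT8 and VIM were abundant in all 6 samples, KRT8 higher and VIM lower in DKK1-SE-/- without overlap (log2 fold change 0.86, adjusted p = 0.000518, and -0.47, adjusted p = 0.00597). KRT18 and KRT19 also rose (log2 fold change 0.67 and 1.83), EPCAM was lower (-0.67, adjusted p = 0.0395), and KRT7 did not pass the test (0.47, adjusted p = 0.0785). Markers of acinar cells (PRSS1, CPA1), endocrine cells (INS, GCG), immune cells (PTPRC, CD3E), endothelium (PECAM1, CDH5) and fibroblasts (DCN, LUM) had 0 to 5 counts in any sample. In bulk RNA, fewer cells that express a gene and less of its RNA per cell cannot be told apart.

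The 192 LINC genes were mostly at low levels. Their mean TPM ran from 0.5 to 26.65 (LINC00665) with a median of 1.43, and 13 genes had 10 or more, 116 had 1 to 10 and 63 had less than 1. The 6 most abundant held 21.5% of the summed mean TPM. All members together made up 586, 598 and 588 TPM in the control samples and 557, 576 and 660.3 TPM in the DKK1-SE-/- samples. The DKK1-SE-/- sums lay on both sides of the control sums, lowest in DKK1-SE-/- replicate 1 and highest in replicate 3. A TPM above 0 was found in all 6 samples for 171 members. The mean of the DKK1-SE-/- samples alone reached 0.5 for 22 members and the mean of the control samples alone for 12, so these entered the group through 1 genotype, and their direction is partly fixed by that choice. Of these 34, 11 were tested, 4 were called up and 2 down, and of the 136 tested members that reached 0.5 in both genotypes 16 were called up and 8 down, beside 19.8% and 19.5% of all tested genes. GENCODE lists 188 of the members as lncRNA genes and 4 as transcribed pseudogenes (LINC02210, LINC01667, LINC03006 and LINC01881, named here after their class was seen).

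Near the level of 0.5 the values were low and scattered. Just inside it, LINC00958 had 0.38, 0.93 and 0.35 TPM in control and 0.58, 0.41 and 0.35 TPM in DKK1-SE-/- samples. LINC00106, also at a mean of 0.5, had 0.49, 0 and 0.58 TPM in control and 1.07, 0.86 and 0 TPM in DKK1-SE-/- samples. LINC00668 had 0.38, 0 and 0.2 TPM in control and 0.59, 1.01 and 0.86 TPM in DKK1-SE-/- samples. The genotypes overlapped for LINC00958 and LINC00106, while for LINC00668 all 3 DKK1-SE-/- samples were above the control samples. Just outside it, LINC02614 had 0.34, 0.59 and 0.23 TPM in control and 0, 0.8 and 1.03 TPM in DKK1-SE-/- samples. LINC02603 had 0.18, 0.28 and 0.09 TPM in control and 0.46, 0.71 and 1.27 TPM in DKK1-SE-/- samples. LINC02985 had 0.33, 0.65 and 0 TPM in control and 0.42, 1.28 and 0.23 TPM in DKK1-SE-/- samples. Of these 3, LINC02603 was higher in every DKK1-SE-/- sample and the others overlapped. Both further LINC-type genes that the study lists at Cas9 target or predicted off-target sites were below the level. LINC00561 had 0 counts in all 6 samples. LNCAROD (LINC01468), whose span overlaps the super-enhancer but not the deleted e1, had 4 counts in control replicate 3 and 0 elsewhere. The study predicted LNCAROD, beside DKK1, as a target of the super-enhancer and reports low levels of it in pancreatic cancer cells.

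As annotated, the members often overlap other genes. They had a median of 5 exon blocks (1 to 57, and 1 in 20 members) over a median span of 21.5 kb. An exon overlapped an exon of another gene on the same strand in 31 members and on the opposite strand in 72. Many also carry repeated or duplicated sequence: 15 members shared 50% or more of their 31-base words with exons of other genes, and 94 shared less than 5%. A read that lies wholly within shared sequence cannot be assigned to a single gene by its sequence, while a longer read can reach unique bases. At least 1 expected count was not whole (by more than 0.005) in 105 members.

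The comparison asks which of these RNAs differ in level between DKK1-SE-/- and control cells. Of the 192 members, 147 passed the count filter and were tested with all other genes (15179 in total), and 45 did not pass. The tested members had a median mean count of 38.4 per sample against 323 over all tested genes, and those not tested had at most 13.3. A gene was called when its Benjamini-Hochberg adjusted p, over all 15179 genes, was under 0.05. By this rule 20 of the 147 were called up, beside 19.8% of all tested genes, and 10 were called down, beside 19.5% of all tested genes. As shares, 13.6% of the tested members were called up and 6.8% down. By a size limit set here (unadjusted p under 0.05 and a log2 fold change of at least 1.2 in size), 10 members were up and 6 down, beside 4.96% and 3.7% of all tested genes. Together these are 10.9% of the tested members and 8.66% of all tested genes, but the members had fewer counts, and shares by count are given below. The 1.2 is taken from the study, where it is worded as a fold change, and its use on the log2 scale is a choice made here. As a linear fold change of 1.2, a reading added after the values were seen, the limit was passed by 29 members up and 14 down, beside 24.3% and 23.3% of all tested genes. The median log2 fold change was 0.12 over the tested members, also with LINC00681 set at its bound, and 0.030 over all tested genes. The members' standard errors were larger, with a median of 0.30 against 0.16. Of all 192 members, 22 were higher and 28 lower in every DKK1-SE-/- sample than in every control sample by TPM, and 24 of the 30 called members were among these. These are 11.5% and 14.6% of the members, beside 16.1% and 25.6% of the 15730 genes with a mean TPM of 0.5 or more, and 17.5% and 26.7% of all tested genes (19.8% and 19.5% called), so lower values were more frequent by TPM in both sets.

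Set beside other genes with a mean TPM of 0.5 or more, the members had shares near those of other noncoding genes. Among 1490 tested lncRNA genes with other names and such a mean, 20.6% were called, against 20.4% of the members. Among 12168 tested protein-coding genes with such a mean, 43.3% were called. The median mean count was 38.4 for the members, 35.6 for the other lncRNA genes and 486 for the protein-coding genes. The protein-coding genes thus shared the lower limit of TPM but were not matched in level. By mean count, 16.3% of 43 members under 20 counts were called, against 21.5% of all tested genes in that range. From 20 to 50 counts the shares were 18.2% of 44 members and 27% of all. From 50 to 150 counts they were 16.2% of 37 members and 36.1% of all. Among the 23 members with 150 counts or more, 39.1% were called, against 45.4% of all. In each range the share of members called was below that of all genes, and it was highest where counts were highest. The size limit was passed mostly at low counts: over the same ranges, from low to high, by 16.3%, 11.4%, 8.11% and 4.35% of the members and by 23.1%, 17.8%, 11.5% and 3.88% of all tested genes.

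**Figure D1:**
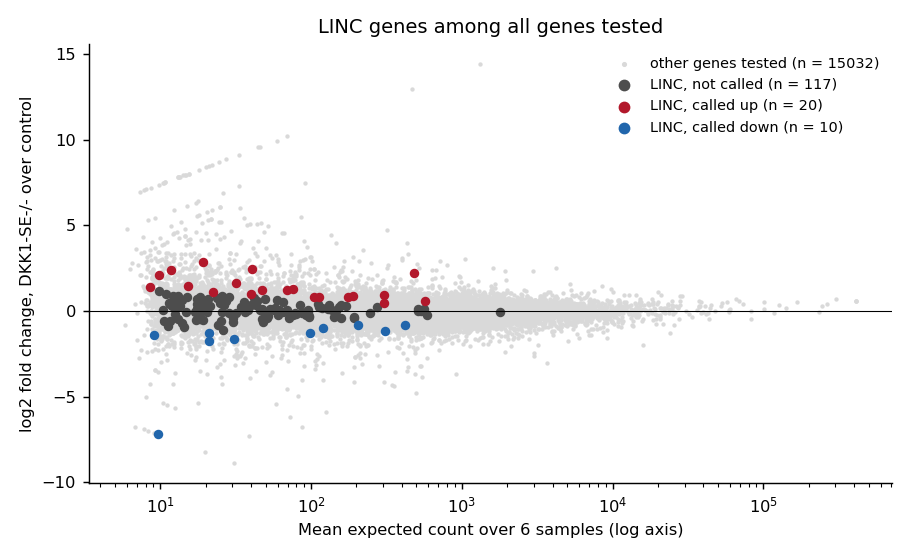
Log2 fold change of DKK1-SE-/- over control against the mean expected count over 6 samples (log axis), with other tested genes in light grey (n = 15032), LINC genes not called in dark grey (n = 117), called up in red (n = 20) and called down in blue (n = 10). The LINC genes lie mostly at low counts and within the spread of other genes there, and the fitted value of LINC00681, far below the rest, depends on a prior count because its DKK1-SE-/- counts were 0.

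These counts move with the scale and with single libraries. In limma on log2(TPM + 1), 12 members were called up and 11 down, beside 27.4% of all tested genes called in either direction. In the fit on counts that share was 39.3%. By the size limit 2 members were up and 2 down, and the median was -0.035, against -0.083 over all tested genes. The log2 fold change was more than 1.5 times smaller than from counts in 20 of the 30 called members with TPM + 1 and in 5 with TPM + 0.1, and in 0 it was as much larger. For LINC00659 the values were 0.79 and 1.71, against 2.4 from counts. The parts of the scale and of the added number in this were not separated. With TPM + 0.1 the calls were again 12 and 11, beside 27.2% of all tested genes called in either direction. By the size limit 6 members were up and 7 down, and the medians were -0.077 for the members and -0.11 for all tested genes. The TPM for the same count differed between libraries. For LINC00938, picked after its values were seen, the ratio of TPM to CPM (the count scaled to library size) was 0.136, 0.137 and 0.137 in control. In DKK1-SE-/- samples it was 0.119, 0.12 and 0.136, with replicate 3 near the controls. How many members share this pattern was not counted. Over 146 tested members, the log2 ratio from TPM minus that from counts had a median of -0.15. In 21 members, 0 of them called, the signs on the 2 scales were opposite. The number up by the size limit was 17 without control replicate 1 and 16 without control replicate 2, and the number down was 11 without DKK1-SE-/- replicate 3. Measured against the control mean on the log2 scale, the median member stood at 0.018 in DKK1-SE-/- replicate 1, 0.11 in replicate 2 and 0.29 in replicate 3, while the median over all genes stood at 0.013, 0.054 and 0.0088. Fold changes also followed base composition: across 13853 tested genes that did not pass the size limit, Spearman's rho of log2 fold change with GC content was 0.43, and across the 147 members it was 0.13. Genes are not independent replicates, so no p is given. With an offset for GC content, 25 of the 147 members were called up and 12 down, beside 41.1% of all tested genes called in either direction. By the size limit 11 were up and 3 down, and the median was 0.24, against 0.0074 over all tested genes. What part composition has in any one gene's value was not tested.

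The member with the highest mean level was also the one with the smallest p. LINC00665 (ENSG00000232677, chr19:36259540-36331770, minus strand) is transcribed from a cluster of zinc-finger genes and has been described as raised in several carcinomas. It had 13.3, 13.2 and 12.2 TPM in the control samples and 42.6, 37.5 and 41 TPM in the DKK1-SE-/- samples, from 221, 153 and 165 and 755, 865 and 714 counts. All 3 DKK1-SE-/- samples lay between 37.5 and 42.6 TPM and all 3 control samples between 12.2 and 13.3, with no overlap and a narrow spread in each group (mean 12.9 ± 0.622 and 40.4 ± 2.63 TPM, SD, n = 3). It rose (log2 fold change 2.24, SE 0.13, adjusted p = 7.17e-07) and was called in all 15 alternative fits, with lower log2 fold changes in the fits on TPM (1.57 with 1 added and 1.63 with 0.1 added). It shared 31.5% of its 31-base words with other genes, most with LINC01535. The nearest tested coding gene, ZFP14 at 2.68 kb, had 1.01, 0.84 and 0.41 TPM in control and 0.88, 0.77 and 1.09 TPM in DKK1-SE-/- samples. The genotypes overlapped for ZFP14, which did not pass the test (log2 fold change -0.22, SE 0.30, adjusted p = 0.596).

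Several members with a control mean below 0.5 TPM were called up. LINC00460, LINC00842 and LINC00659 belong to the group only through their DKK1-SE-/- samples (control means of 0.357, 0.333 and 0.333 TPM), so a rise was partly fixed by the choice of members. LINC00460 (ENSG00000233532, chr13:106374477-106384315, plus strand), described as raised in several carcinomas, had 0.65, 0.19 and 0.23 TPM in control and 2.2, 1.84 and 3.33 TPM in DKK1-SE-/- samples, from 8, 3 and 4 and 37, 29 and 35 counts. Every DKK1-SE-/- sample was above every control sample, and control replicate 1 was the highest of its group (log2 fold change 2.87, SE 0.42, adjusted p = 0.000417). EFNB2, its nearest tested coding gene at 105 kb, did not pass the test (log2 fold change 0.19, SE 0.13, adjusted p = 0.293). LINC00842 (ENSG00000285294, chr10:46398362-46453306, plus strand), an RNA studied in pancreatic cancer, had 0.5, 0.03 and 0.47 TPM in control and 1.66, 1.52 and 1.93 TPM in DKK1-SE-/- samples, from 23, 1 and 18 and 63, 69 and 71 counts. The groups did not overlap, and control replicate 2, with 1 count, was far below the other control samples (log2 fold change 2.42, SE 0.49, adjusted p = 0.00277). Its nearest tested coding gene, GPRIN2 at 88.4 kb, had 0.17, 0.21 and 0.24 TPM in control and 0.81, 0.51 and 0.76 TPM in DKK1-SE-/- samples. GPRIN2 was thus low in all 6 samples and higher in every DKK1-SE-/- sample (log2 fold change 1.90, SE 0.26, adjusted p = 0.000296). LINC00659 (ENSG00000228705, chr20:62772980-62776996, minus strand) had 0.45, 0.29 and 0.26 TPM in control and 1.82, 0.95 and 1.23 TPM in DKK1-SE-/- samples. All its DKK1-SE-/- values were above all control values, with replicate 1 the highest (log2 fold change 2.40, SE 0.46, adjusted p = 0.0021). NTSR1, the neurotensin receptor gene 10.2 kb away, had 41.4, 47.9 and 53.5 TPM in control and 74.1, 59.4 and 62.3 TPM in DKK1-SE-/- samples. It was higher by the test as well (log2 fold change 0.61, SE 0.14, adjusted p = 0.00713).

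Other members rose from a level above 1 TPM in the control samples. LINC02057 (ENSG00000249279, chr5:61201304-61304811, minus strand) had 2.13, 2.24 and 1.84 TPM in control and 5.1, 6.8 and 5.55 TPM in DKK1-SE-/- samples. The lowest DKK1-SE-/- value was more than the highest control value (log2 fold change 1.65, SE 0.30, adjusted p = 0.0017). Its nearest tested coding gene, ZSWIM6 at 27.4 kb, also rose (log2 fold change 0.75, SE 0.11, adjusted p = 0.000544). LINC00839 (ENSG00000185904, chr10:42475480-42495337, plus strand) had 1.4, 1.45 and 1.18 TPM in control and 3.2, 3.26 and 2.47 TPM in DKK1-SE-/- samples. The groups were apart, with DKK1-SE-/- replicate 3 closest to the controls (log2 fold change 1.26, SE 0.25, adjusted p = 0.00232), and ZNF33B at 78.8 kb did not pass the test (log2 fold change 0.27, SE 0.20, adjusted p = 0.325). LINC01139, known as LINK-A for its link to kinase signalling (ENSG00000215808, chr1:238476542-238486060, minus strand), had 1.72, 2.16 and 1.52 TPM in control and 2.8, 4.41 and 2.65 TPM in DKK1-SE-/- samples. DKK1-SE-/- replicate 2 stood highest and the groups did not overlap (log2 fold change 1.2, SE 0.27, adjusted p = 0.00475), although it was not called in either fit on TPM (adjusted p over all 15 alternative fits 3.24e-05 to 0.0613). Its nearest tested coding gene, CHRM3, is 900.5 kb away and was called down with overlapping TPM (log2 fold change -1.46, SE 0.40, adjusted p = 0.0138). LINC01004 (ENSG00000228393, chr7:104950315-105013068, minus strand), whose span overlaps that of KMT2E, had 2.23, 1.13 and 1.08 TPM in control and 2.82, 3.6 and 3.2 TPM in DKK1-SE-/- samples. Control replicate 1 was nearest to the DKK1-SE-/- samples without reaching them (log2 fold change 1.2, SE 0.32, adjusted p = 0.0119). KMT2E, a gene for a chromatin regulator, had 8.34, 10.6 and 7.85 TPM in control and 7.56, 7.8 and 14.5 TPM in DKK1-SE-/- samples. These values overlapped and did not pass the test (log2 fold change 0.20, SE 0.17, adjusted p = 0.367).

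The calls of LINC02582 and LINC00240 were each lost when certain samples were left out. LINC02582 (ENSG00000261780, chr18:73324941-73349879, plus strand) had 0.38, 0.16 and 0.07 TPM in control and 0.79, 0.89 and 0.89 TPM in DKK1-SE-/- samples. All DKK1-SE-/- values were close together and above the scattered control values (log2 fold change 2.07, SE 0.55, adjusted p = 0.0118), and without control replicate 2 the adjusted p was 0.0509 (range over 15 alternative fits 0.00672 to 0.0509). Without control replicate 1 its log2 fold change was 2.85. It too reached 0.5 TPM only through the DKK1-SE-/- samples (control mean 0.203). Its nearest tested coding gene, FBXO15 at 724 kb, was lower in every DKK1-SE-/- sample by TPM but did not pass the test (log2 fold change -0.66, SE 0.44, adjusted p = 0.254). LINC00240 (ENSG00000224843, chr6:26956932-27059749, plus strand), near the histone genes of chromosome 6, had 0.61, 0.6 and 0.66 TPM in control and 1.8, 1.58 and 1.19 TPM in DKK1-SE-/- samples. The groups did not overlap by TPM (log2 fold change 1.40, SE 0.46, adjusted p = 0.0337), but it was called in only 7 of 15 alternative fits, with adjusted p of 0.0636 to 0.144 without any 1 of the control samples or without DKK1-SE-/- replicate 1 or 2, and 0.0771 to 0.133 with the block, DESeq2 or no filter (range over all 15 fits 0.00824 to 0.144). With the GC offset its log2 fold change was 2.02, and 2.04 with the block added. Its nearest tested coding gene, the histone gene H2BC11 at 66.2 kb, did not pass either (log2 fold change 0.49, SE 0.22, adjusted p = 0.101).

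**Figure D2:**
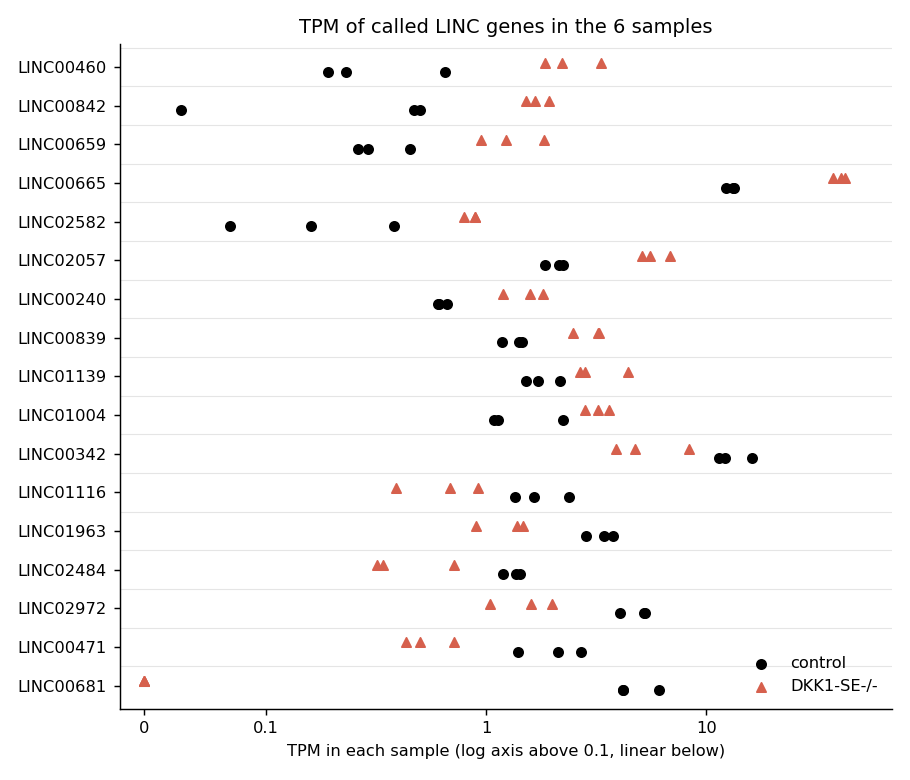
TPM in each of the 6 samples (log axis above 0.1, linear below) for the 17 LINC genes that were called with a log2 fold change of at least 1 in size and no overlap of TPM, control in black circles and DKK1-SE-/- in red triangles. The 10 upper genes have all triangles to the right of the circles and the 7 lower genes all triangles to the left, with LINC00681 at 0 in DKK1-SE-/-.

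Promoter windows of 300 bases around the RefSeq start, mostly upstream of it (build GRCh38.p14), were found for 130 of the 192 members. Both identifiers of LINC02256 match a single RefSeq gene, which lies 2110 kb from the start of ENSG00000289083. The windows thus have 129 distinct sets of coordinates, and some of them overlap. They were searched on both strands for TGANTCA, the core letters of the AP-1 site, because the study places AP-1 factors at e1, for TGACGTCA, the related cyclic AMP response element, and for TATAAA, the TATA box letters. TGANTCA occurred in 18 of the 130 (13.8%) and in 7.71% of all 35116 promoters in the table. The windows of LINC-PINT and LINC00513 overlap on opposite strands and share these letters, so the same matches count for both. TGACGTCA occurred in 5 (3.85%) and in 1.85% of all. TATAAA occurred in 17 (13.1%) and in 11.5% of all. The RefSeq start lay within 1 kb of the GENCODE start for 93 of the 130, a limit added after the values were seen, and among these TGANTCA occurred in 8 (8.6%), TGACGTCA in 5 (5.38%) and TATAAA in 13 (14%). Among the 12 matched members called up, 2 held TGANTCA, 1 held TGACGTCA and 3 held TATAAA, and among the 5 matched members called down, 1 held TGANTCA. All 3 windows with TGANTCA (LINC-PINT, LINC00460 and LINC00963) lie more than 1 kb from the GENCODE start, that of LINC-PINT 197 kb inside the span and so not at the start beside MKLN1. With the limit of 1 kb, 0 of 9 called up and 0 of 3 called down held TGANTCA. A match gives letters in a window and is not a bound site. The windows printed are those of called members, with capitals marking each match to 1 of the 3 motifs: LINC00665, with no match, as the member with the smallest p (chr19:36331669-36331968 on the minus strand); LINC00460, with 2 copies of TGACTCA (chr13:106376314-106376613 on the plus strand); LINC00659 (chr20:62776807-62777106 on the minus strand) and LINC00839 (chr10:42475241-42475540 on the plus strand), with TATAAA; LINC00265, with TGACGTCA (chr7:39733318-39733617 on the plus strand); and LINC00963, with TGAGTCA (chr9:129488410-129488709 on the plus strand). The RefSeq start lies inside the GENCODE span of each of these genes, by 2.09 kb for LINC00460, 11.7 kb for LINC00963 and at most 0.14 kb for the other 4. LINC00265 was picked for printing after its motif was seen.
LINC00665: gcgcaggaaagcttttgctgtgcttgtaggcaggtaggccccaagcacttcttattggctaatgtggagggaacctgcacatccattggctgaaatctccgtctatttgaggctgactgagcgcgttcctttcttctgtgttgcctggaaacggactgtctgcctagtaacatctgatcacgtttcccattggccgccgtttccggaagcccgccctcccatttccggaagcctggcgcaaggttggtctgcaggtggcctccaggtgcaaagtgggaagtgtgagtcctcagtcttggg
LINC00460: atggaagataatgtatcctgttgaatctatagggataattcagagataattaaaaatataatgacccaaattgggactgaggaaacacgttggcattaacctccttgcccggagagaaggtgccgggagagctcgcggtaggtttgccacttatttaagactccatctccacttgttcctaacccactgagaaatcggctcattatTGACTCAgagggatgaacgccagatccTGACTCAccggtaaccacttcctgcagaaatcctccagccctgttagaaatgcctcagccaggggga
LINC00659: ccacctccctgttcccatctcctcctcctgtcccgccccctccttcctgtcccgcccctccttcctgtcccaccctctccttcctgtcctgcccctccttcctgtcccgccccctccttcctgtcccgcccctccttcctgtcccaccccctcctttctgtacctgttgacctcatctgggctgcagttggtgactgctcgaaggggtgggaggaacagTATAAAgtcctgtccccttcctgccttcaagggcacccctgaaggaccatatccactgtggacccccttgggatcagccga
LINC00839: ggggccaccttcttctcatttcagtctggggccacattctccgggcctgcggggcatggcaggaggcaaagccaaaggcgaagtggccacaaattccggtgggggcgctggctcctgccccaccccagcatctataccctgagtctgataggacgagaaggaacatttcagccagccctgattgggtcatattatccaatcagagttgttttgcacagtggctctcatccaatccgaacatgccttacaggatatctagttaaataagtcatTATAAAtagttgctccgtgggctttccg
LINC00265: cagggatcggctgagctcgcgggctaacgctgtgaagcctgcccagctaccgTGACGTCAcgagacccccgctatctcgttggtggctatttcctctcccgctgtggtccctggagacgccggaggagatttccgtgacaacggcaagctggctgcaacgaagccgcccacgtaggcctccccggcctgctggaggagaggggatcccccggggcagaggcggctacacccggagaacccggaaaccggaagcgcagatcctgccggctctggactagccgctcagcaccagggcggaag
LINC00963: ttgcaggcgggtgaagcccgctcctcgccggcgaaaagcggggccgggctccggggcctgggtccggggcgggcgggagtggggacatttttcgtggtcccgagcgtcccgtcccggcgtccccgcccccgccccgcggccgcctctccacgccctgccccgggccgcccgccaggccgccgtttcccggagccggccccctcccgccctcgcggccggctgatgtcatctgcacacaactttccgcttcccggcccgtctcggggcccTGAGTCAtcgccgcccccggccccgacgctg

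The called members that fell include an RNA studied in pancreatic carcinoma and a neighbour of the abundant gene NCL. LINC01963 (ENSG00000260804, chr2:216217045-216220192, plus strand) had 2.84, 3.41 and 3.77 TPM in control and 1.38, 0.9 and 1.47 TPM in DKK1-SE-/- samples. Every DKK1-SE-/- value was below every control value (log2 fold change -1.27, SE 0.21, adjusted p = 0.000993). XRCC5, a DNA repair gene 10.7 kb away, fell by less (log2 fold change -0.54, SE 0.10, adjusted p = 0.00205). LINC00471 (ENSG00000181798, chr2:231508420-231514396, minus strand) had 2.11, 2.68 and 1.39 TPM in control and 0.5, 0.43 and 0.71 TPM in DKK1-SE-/- samples. The groups were apart, with control replicate 3 the lowest control (log2 fold change -1.75, SE 0.39, adjusted p = 0.00509). NCL, which codes for the nucleolar protein nucleolin and lies 24.8 kb away, had 782, 834 and 786 TPM in control and 364, 389 and 529 TPM in DKK1-SE-/- samples. NCL was abundant in all samples and lower in every DKK1-SE-/- sample, least so in replicate 3 (log2 fold change -0.77, SE 0.11, adjusted p = 0.000417). LINC00342 (ENSG00000232931, chr2:95807052-95835003, minus strand) had 16.2, 12.1 and 11.4 TPM in control and 3.89, 4.75 and 8.32 TPM in DKK1-SE-/- samples. DKK1-SE-/- replicate 3 was nearest to the controls and the groups did not overlap (log2 fold change -1.16, SE 0.20, adjusted p = 0.00126). It shared 35.1% of its 31-base words with other genes, and ANKRD36C at 1.92 kb fell as well (log2 fold change -0.96, SE 0.20, adjusted p = 0.00359).

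LINC02972 (ENSG00000249790, chr12:8788253-8795789, plus strand) had 5.24, 4.05 and 5.22 TPM in control and 1.04, 1.59 and 1.98 TPM in DKK1-SE-/- samples. All DKK1-SE-/- values were below all control values (log2 fold change -1.62, SE 0.32, adjusted p = 0.00235), while RIMKLB at 5.16 kb did not pass the test (log2 fold change -0.23, SE 0.19, adjusted p = 0.357). LINC01116 (ENSG00000163364, chr2:176611437-176637931, minus strand) had 1.64, 2.38 and 1.35 TPM in control and 0.92, 0.39 and 0.68 TPM in DKK1-SE-/- samples. The groups did not overlap (log2 fold change -1.26, SE 0.41, adjusted p = 0.0302), but it was called in 9 of 15 alternative fits, with adjusted p of 0.0592 to 0.13 without control replicate 1 or 2 or DKK1-SE-/- replicate 2 or 3, and 0.0577 with the GC offset, or 0.081 with the block added (range over all 15 fits 0.0175 to 0.13). MTX2, 273 kb away, fell (log2 fold change -0.45, SE 0.13, adjusted p = 0.0171). LINC02484 (ENSG00000248685, chr4:34120090-34335351, minus strand) had 1.19, 1.36 and 1.42 TPM in control and 0.34, 0.32 and 0.71 TPM in DKK1-SE-/- samples. It was lower in every DKK1-SE-/- sample (log2 fold change -1.38, SE 0.47, adjusted p = 0.0376), but called in only 5 of 15 alternative fits, with adjusted p of 0.0803 to 0.136 without any 1 of the control samples or without DKK1-SE-/- replicate 1 or 2, 0.117 with the GC offset, 0.193 with the block added to it, and 0.0741 to 0.122 with the block alone, DESeq2 or no filter (range over all 15 fits 0.00991 to 0.194). It reached 0.5 TPM only through the control samples (DKK1-SE-/- mean 0.457). ARAP2, the nearest tested coding gene at 1613 kb, had 2.6, 2.46 and 2.64 TPM in control and 0.96, 0.92 and 3.08 TPM in DKK1-SE-/- samples. It was called down by counts (log2 fold change -0.94, SE 0.18, adjusted p = 0.00198), although by TPM its DKK1-SE-/- replicate 3 was above every control sample.

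LINC00681 was the tested member with no count in DKK1-SE-/-. LINC00681 (ENSG00000255494, chr8:12794243-12818292, plus strand) had 6.11, 4.19 and 4.17 TPM in the control samples, from 28, 14 and 16 counts, and 0 TPM in each DKK1-SE-/- sample. Taking 3 counts as the floor of a library, it was at least 5.77-fold lower in DKK1-SE-/- (adjusted p = 0.000463), and it is a member through its control samples alone. LONRF1, 38.2 kb away, had 3.52, 3.85 and 3.21 TPM in control and 1.27, 2.92 and 2.24 TPM in DKK1-SE-/- samples. LONRF1 was lower by the test but still expressed (log2 fold change -0.76, SE 0.20, adjusted p = 0.0106). Another 2 members, LINC02768 and LINC02919, had 0 counts in all DKK1-SE-/- samples and were not tested. All control samples were at 0 for another 2 untested members, LINC03006 and LINC01629. These 4 were picked out after their values were seen.

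Outside these 17, 10 members were called up and 3 down. LINC-PINT (ENSG00000231721, chr7:130791264-131110176, minus strand), a p53-induced transcript that starts beside MKLN1, had 7.73, 8.45 and 7.49 TPM in control and 11.4, 11.4 and 13.7 TPM in DKK1-SE-/- samples. It was higher in every DKK1-SE-/- sample and was called in all 15 alternative fits (log2 fold change 0.93, SE 0.16, adjusted p = 0.00119). MKLN1, whose start lies 80 bases from that of LINC-PINT on the other strand, did not pass the test (log2 fold change 0.026, SE 0.18, adjusted p = 0.925). LINC00963 (ENSG00000204054, chr9:129476946-129513687, plus strand), first described in prostate cancer, had 19, 15 and 18.1 TPM in control and 9.04, 8.61 and 10.5 TPM in DKK1-SE-/- samples. It was lower in every DKK1-SE-/- sample and was called in all 15 alternative fits (log2 fold change -0.85, SE 0.12, adjusted p = 0.000421). The other 11 were not chosen by rule and are named after their values were seen. LINC01145, LINC00888, LINC00265 and LINC00847 rose without overlap of TPM, with log2 fold changes of 0.87, 0.79, 0.80 and 0.81. LINC02693, LINC01278, LINC02193, LINC00649 and LINC01134 were called up (0.55, 0.47, 1.00, 1.44 and 1.08), although their TPM overlapped between the groups. LINC00641 was called down without overlap (-0.80) and LINC02969 with overlap (-0.97). LINC01145, LINC02969 and LINC02193 shared 89.7%, 73.2% and 69.2% of their 31-base words with other genes. Among these 11, LINC01278, LINC02193, LINC02693, LINC00649, LINC01134 and LINC02969 lost the call when at least 1 sample was left out, and were called in 11, 9, 12, 5, 4 and 14 of the 15 alternative fits. Their adjusted p reached at most 0.203, 0.211, 0.355, 0.452, 0.159 and 0.062 over those fits. LINC01145 and LINC00847 lost the call in both fits on TPM, with adjusted p up to 0.188 and 0.0729 and log2 fold changes down to 0.31 and 0.49. In all, 20 of the 30 called members were called whichever sample was left out, and 17 in every fit run.

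Apart from LINC00665, the most abundant members were not called in the edgeR fit on counts without a GC offset. LINC00205 (ENSG00000223768, chr21:45288035-45297806, plus strand) had 21.4, 20.6 and 26.6 TPM in control and 24.1, 18 and 21.9 TPM in DKK1-SE-/- samples. The groups overlapped (log2 fold change -0.061, SE 0.10, adjusted p = 0.663), but with the GC offset it was called down (-0.26, adjusted p = 0.0221, or 0.0465 with the block added). POFUT2, which starts 137 bases away on the other strand, had 94.5, 98.1 and 95.1 TPM in control and 86, 76 and 88.4 TPM in DKK1-SE-/- samples. It was called up by counts (log2 fold change 0.50, SE 0.10, adjusted p = 0.00364) while its TPM was lower in every DKK1-SE-/- sample, so its direction depends on the scale. LINC00511 (ENSG00000227036), described as a growth-promoting RNA in several cancers, had 23.5, 24.2 and 23.5 TPM in control and 21.8, 19.3 and 19.5 TPM in DKK1-SE-/- samples. By TPM every DKK1-SE-/- sample was lower, yet the counts gave no difference (log2 fold change -0.012, SE 0.12, adjusted p = 0.952), and SLC39A11 at 5.48 kb, higher in every DKK1-SE-/- sample by TPM, did not pass (log2 fold change 0.16, SE 0.13, adjusted p = 0.349). LINC02210 (ENSG00000204650) had 19.1, 22.3 and 19.4 TPM in control and 21.5, 22.9 and 22.6 TPM in DKK1-SE-/- samples. Its values overlapped (log2 fold change 0.25, SE 0.13, adjusted p = 0.154), and PLEKHM1 at 129.6 kb was called up by a narrow margin (log2 fold change 0.31, SE 0.11, adjusted p = 0.0462). LINC00662 (ENSG00000261824) had 21.4, 17.4 and 18.5 TPM in control and 19, 21.3 and 24.7 TPM in DKK1-SE-/- samples. It overlapped too (log2 fold change 0.10, SE 0.13, adjusted p = 0.565), as did LINC00667 (ENSG00000263753) with 16.7, 15.8 and 16.6 and 15.5, 13.4 and 15.8 TPM (log2 fold change -0.22, SE 0.11, adjusted p = 0.13). With the GC offset LINC00662 was called up (0.52, adjusted p = 0.000788, or 0.00197 with the block added). UQCRFS1, the nearest tested coding gene to LINC00662, and ZBTB14, which LINC00667 overlaps on the other strand, did not pass the test (log2 fold change -0.16 and -0.32). With the GC offset the log2 fold change of LINC00667 was 0.027, or 0.025 with the replicate number as a block as well. Without DKK1-SE-/- replicate 3 that of LINC00662 was -0.034 and that of LINC00511 was 0.053, and without control replicate 2 that of LINC00511 was 0.014. Of the 13 members at 10 TPM or more, 4 were called (LINC00665, LINC01278 and LINC-PINT up and LINC00963 down), beside 43.5% of the 7519 tested genes at that level.

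A list of 37 LINC RNAs that have been studied in cancer or have a known role held 31 names found in the table, of which 19 were members and 12 were below the level. Of the 18 tested, 5 were called up (LINC-PINT, LINC00460, LINC00665, LINC00839 and LINC00842), 3 were called down (LINC00963, LINC01116 and LINC01963) and 10 were not called, beside 19.8% called up and 19.5% called down over all tested genes. Their median log2 fold change was 0.12, the same as over all tested members to 2 decimals. LINC00261, which lies beside FOXA2 and acts in endoderm, had 2.26, 2.89 and 3.54 TPM in control and 3.36, 4.66 and 3.64 TPM in DKK1-SE-/- samples. Its values overlapped and were not called (log2 fold change 0.36, SE 0.18, adjusted p = 0.144), but it was called up with the GC offset (0.52, adjusted p = 0.0226, or 0.0258 with the block) and without DKK1-SE-/- replicate 1 (0.48, adjusted p = 0.0484). LINC00461, the host transcript of a miR-9 gene, had 0.92, 0.45 and 1.4 TPM in control and 0.24, 0.59 and 0.51 TPM in DKK1-SE-/- samples. It overlapped and narrowly missed the call (log2 fold change -1.13, SE 0.42, adjusted p = 0.0503), and 5 of the 15 alternative fits called it down, with RLE factors, library size alone, no filter, DESeq2 or without control replicate 2 (adjusted p 0.0197 to 0.0488). LINC00467 had 11.8, 9.6 and 10.6 TPM in control and 6.15, 5.88 and 7.85 TPM in DKK1-SE-/- samples. Its TPM did not overlap, but the counts did not pass the test (log2 fold change -0.35, SE 0.20, adjusted p = 0.188), whereas both fits on TPM called it. Among the others, LINC00472, LINC00857, LINC01232, LINC00526 and LINC01088 had log2 fold changes of 0.14, 0.22, -0.086, -0.19 and 0.28 and were not called. With the GC offset LINC00472 was called up (0.503, adjusted p = 0.000531, or 0.00239 with the block). The sign turned for LINC01088 in both fits on TPM (-0.15 and -0.29), for LINC00526 without DKK1-SE-/- replicate 1 or 2 (0.036 and 0.067), and for LINC00472 without DKK1-SE-/- replicate 3 (-0.0038).

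Chromosome 10, which carries DKK1 and its enhancer, held 8 members. Of its 7 tested members, LINC00839 and LINC00842, with the values already given, were called up and 0 down, beside 13.8% called up and 39.8% called down over all 588 tested genes of the chromosome. LINC02916 had 1.55, 1.67 and 3.59 TPM in control and 4.84, 1 and 2.98 TPM in DKK1-SE-/- samples. LINC02870 had 1.71, 1.52 and 1.83 TPM in control and 0.91, 1.18 and 1.57 TPM in DKK1-SE-/- samples. Both overlapped and were not called (log2 fold change 0.54 and 0.68), and for LINC02870 the counts were higher in DKK1-SE-/- while the mean TPM was lower. LINC00857 had 5.28, 5.33 and 4.22 TPM in control and 4.56, 5.31 and 5.47 TPM in DKK1-SE-/- samples. LINC00863 had 2.37, 2.18 and 2.77 TPM in control and 4.42, 2.32 and 2.16 TPM in DKK1-SE-/- samples. LINC00702 had 0.71, 0.53 and 1.5 TPM in control and 0.6, 0.43 and 0.8 TPM in DKK1-SE-/- samples. These 3 overlapped too and were not called (0.22, -0.23 and -0.55), and LINC01167 was not tested. In the fits on TPM the sign turned for LINC02870 (-0.28 and -0.46) and LINC00863 (0.16 and 0.2), and for LINC02916 it turned without DKK1-SE-/- replicate 1 (-0.11).

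The members were also set beside the other genes of their chromosome. Apart from chromosome 10, the chromosomes named were not chosen by rule. On chromosome 2, 5 of 14 tested members were called down and 0 up (LINC00342, LINC02969, LINC01116, LINC01963 and LINC00471), which is 5 of the 10 down calls. The 14 members had a median log2 fold change of -0.43, or -0.65 with the GC offset. Over all 975 tested genes of chromosome 2 the median was -0.4, and 45.3% were called down and 6.97% up. The median difference of these genes from the control mean was -0.5, -0.36 and -0.32 in the 3 DKK1-SE-/- samples, and the median with the GC offset was -0.3. The median of chromosome 2 was below 0 in each DKK1-SE-/- sample and with the GC offset, and the part of base composition in it was not tested. On chromosome 7, 3 of 12 tested members were called up (LINC00265, LINC01004 and LINC-PINT) and 0 down, and over its 748 tested genes the median was 0.26, or 0.23 with the GC offset, and 32.4% were called up and 9.76% down. On chromosome 20, 1 of 4 tested members was called up (LINC00659) and 0 down, with a median of 0.38 over 397 tested genes, or 0.27 with the GC offset, of which 41.8% were called up and 8.06% down. Chromosome 10 went the other way as a whole, with a median of -0.32 over 588 tested genes, also with the GC offset, against 0.54 over its 7 tested members, or 0.31 with the GC offset. That 0.54 is the value of LINC02916, whose sign turned without DKK1-SE-/- replicate 1. On chromosome 5, 2 of 6 tested members were called up (LINC02057 and LINC00847) and 0 down, but 4 of the 6 were below 0. The median of the 6 was -0.18, or -0.31 with the GC offset, and the median over the 688 tested genes of the chromosome was -0.18, or -0.042 with the GC offset, with 12.8% called up and 27.2% down. On chromosome 1, 3 of 16 tested members were called up and 0 down. The median over its 1500 tested genes was 0.021, or 0.0072 with the GC offset, with 17.3% called up and 15.5% down. On chromosome 13, 1 of 6 tested members was called up (LINC00460) and 0 down. Its 248 tested genes had a median of -0.21, or -0.022 with the GC offset, with 8.87% called up and 28.2% down. Within 10 Mb, a window chosen after values were seen, the genes around LINC00839 and LINC00842 had medians of 0.35 (n = 81) and 0.43 (n = 73), and those around LINC00863 had -0.66.

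**Figure D3:**
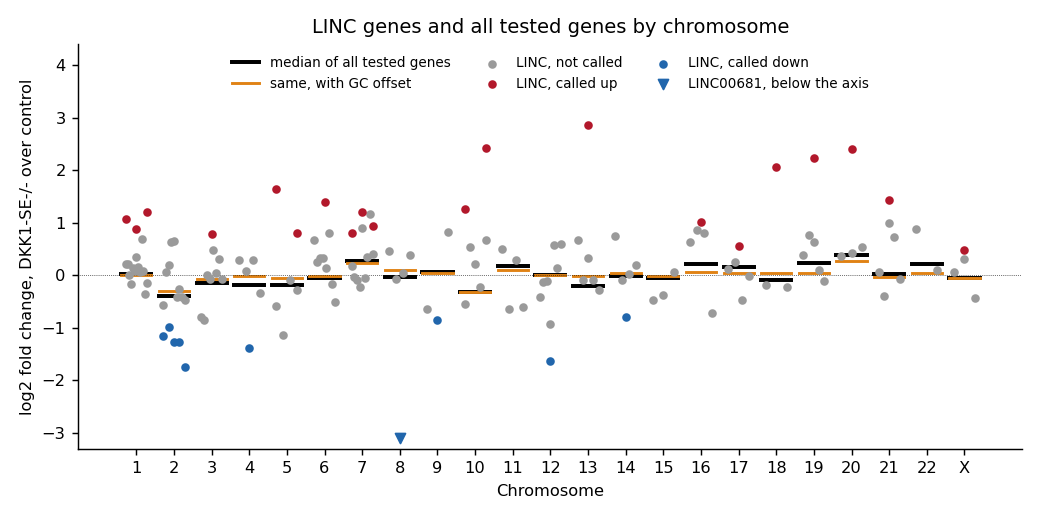
Log2 fold change of each tested LINC gene by chromosome (grey not called, red called up, blue called down), with the median over all tested genes of the chromosome as a black bar and the same with the GC offset as an orange bar. On chromosome 2 the bars and most LINC genes lie below 0, on chromosomes 7 and 20 the bars lie above 0, and LINC00681 on chromosome 8 lies below the axis.

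Across the 147 tested members, Spearman's rho between a member's log2 fold change and the median of its whole chromosome was 0.29, and 85 had the same sign. For the 30 called members rho was 0.29 and 19 had the same sign. Against the median of genes within 10 Mb, the window chosen after values were seen, rho was 0.35 over the tested members, and 98 had the same sign. With the GC offset, rho was 0.25 and 81 had the same sign. For the called members rho was 0.43 within 10 Mb, and 21 had the same sign. Several called members, not chosen by rule, lay far from their region's median, by -1.15 for LINC01963, -1.55 for LINC00471, 2 for LINC00842 and 1.9 for LINC00659 on the log2 scale. The medians around these had the sign of the member. The difference was 2.93 for LINC00460, 2.12 for LINC02582, 1.85 for LINC00649 and 2.08 for LINC00665. Around the first 3 of these the median was below 0 (-0.058, -0.05 and -0.42), and around LINC00665 it was 0.16. For LINC00681 the difference was -6.56, from a fitted value that depends on a prior count. These points share libraries and base composition, and the part that the regional shifts have in each member's change was not tested.

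Set beside the nearest tested protein-coding gene, at a median distance of 25.3 kb, rho was 0.3 over 147 members, 88 had the same sign, and 19 overlapped that gene. For the 30 called members rho was 0.495 and 22 had the same sign. The nearest coding gene was itself called for 14 of the 30, in the same direction for 12 and in the opposite direction for 2, beside 43.2% called over all 12753 tested protein-coding genes. The 2 opposite cases, named after their values were seen, were LINC01139 with CHRM3 and LINC00649 with ATP5PO, which LINC00649 overlaps on the other strand (ATP5PO log2 fold change -0.57, adjusted p = 0.00387). Members that start within 1000 bases of a coding gene on the other strand form pairs that may share a promoter region. In 12 such pairs with both genes tested, rho was -0.12 and 7 had the same sign. Neighbouring genes share their region's shift, so its part in these values was not tested.

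**Figure D4:**
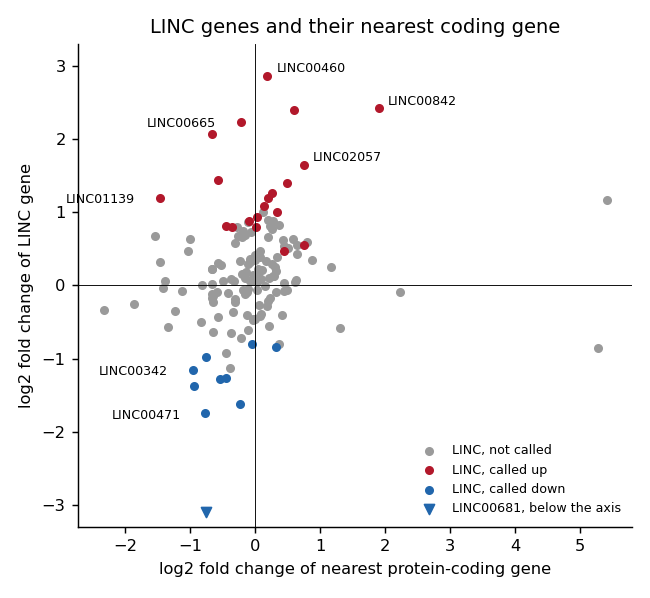
Log2 fold change of each tested LINC gene against that of its nearest tested protein-coding gene, 1 point per LINC gene, grey not called, red called up and blue called down. Most called genes lie in the upper right and lower left fields, with LINC01139 and CHRM3 at the upper left and LINC00842 and GPRIN2 at the upper right.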

How the data were processed

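The authors had stranded poly(A) libraries made and sequenced at Majorbio, and the deposited table gives an expected count (not normalized, not always whole) and a TPM value (normalized by the authors within each library) per gene and sample. The aligner, the counting program and its strand setting are not stated in the sources used here. The fold changes and p-values of the authors' own comparison in the same table were not used. Members and lists were chosen with earlier results of these data known.

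Expected counts were rounded and fitted with edgeR 4.0.16 in R 4.3.3 on all genes that passed filterByExpr (minimum count 10), with TMM normalization and the quasi-likelihood F test, two-sided, 3 against 3. P-values were adjusted over all 15179 tested genes with the Benjamini-Hochberg method. Genes were called at an adjusted p under 0.05. The size limit was an unadjusted p under 0.05 and a log2 fold change of at least 1.2 in size; the study words its 1.2 as a fold change, and the linear reading was added after the values were seen. A group with only 0 counts was set to 3 counts per library for a bound, and such a floor covers counting error only. The 15 alternative fits used RLE factors, library size alone, no count filter, DESeq2 1.42.0, limma-trend (3.58.1) on log2(TPM + 1) or log2(TPM + 0.1), the replicate number as a block, a GC offset in 40 bins with and without the block, and leaving out each of the 6 samples. Mean TPM levels of 1 and 0.25 were also tried.

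Positions, exons and neighbours came from GENCODE version 44 (hg38) by Ensembl identifier, with 62625 of 62703 genes placed, all 192 members among them. Sharing was the percentage of a gene's exonic 31-base words found, on either strand, in exons of other genes that do not overlap it. Named genes were DKK1, the 6 members with the highest mean TPM, up to 10 up and 10 down with the smallest p among called members with a log2 fold change of at least 1 in size and no TPM overlap, the listed studied RNAs, the members on chromosome 10, LINC00561 and LNCAROD, 3 genes on either side of the level, and the nearest tested coding genes. The fits were tested on simulated data.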

Additional observations from a re-analysis of the deposited data

How the results depend on the processing

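Over the alternatives run, 0 of the 30 called members changed sign, 20 were called whichever sample was left out, and 17 were called in every fit. The number called up was 12 in both limma fits on TPM, where 27.4% (TPM + 1) and 27.2% (TPM + 0.1) of all tested genes were called in either direction. By the size limit of 1.2 on the log2 scale, 10 members were up and 6 down in the fit on counts, beside 4.96% and 3.7% of all tested genes. With TPM + 1, 2 were up and 2 down, with TPM + 0.1, 6 up and 7 down, and with the GC offset, 11 up and 3 down. The median log2 fold change of the members was -0.035 with TPM + 1 and -0.077 with TPM + 0.1, where the median over all tested genes was -0.083 and -0.11. Leaving out 1 sample gave 7 to 17 members up and 4 to 11 down by the size limit, with 150 to 160 members tested. As a linear fold change of 1.2, a reading chosen after seeing the data, the limit gave 29 up and 14 down, beside 24.3% and 23.3% of all tested genes. Among promoter windows within 1 kb of the GENCODE start, also chosen after seeing the data, TGANTCA occurred in 8.6% against 13.8% of all matched windows.

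Signs turned for members that were not called: LINC01088 (-0.15 with TPM + 1 and -0.29 with TPM + 0.1), LINC00863 (0.16 and 0.20), LINC02870 (-0.28 and -0.46) and LINC00667 (0.027 with the GC offset and 0.025 with the block added). Over the fits that left out 1 sample, the log2 fold change ran from -0.10 to 0.053 for LINC00511, -0.11 to 1.02 for LINC02916, -0.88 to 0.067 for LINC00526, -0.0038 to 0.22 for LINC00472 and -0.034 to 0.16 for LINC00662. The cause was not tested. The remaining values over named genes were the same in direction and side of the threshold in 482 comparisons, lost the call in 27 and gained it in 16. With the replicate number as a block, 17 members were called up and 9 down, and 26 of the 30 calls were kept. Of all tested genes, 32.8% were called in either direction with the block and 39.3% without it. Residuals of samples with the same number had correlations of -0.12, -0.074 and -0.11, so the data do not show that they share more than a number.

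With a mean TPM of 1 or 0.25 as the level, 18 and 22 members were called up and 9 and 10 down. These are counts and not shares, beside 19.8% called up and 19.5% called down over all 15179 tested genes. Low counts limit the 45 members not tested and widen the errors of the rest, and for members that share sequence the count depends on how reads were assigned. The DKK1-SE-/- samples come from 1 clone.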

Other observations

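Some members that failed the count filter had few counts in 1 group only, and they were picked out after their values were seen. LINC02864 had 0, 0.02 and 0.03 TPM in control and 1.87, 2.05 and 2.4 TPM in DKK1-SE-/- samples, 2 counts against 66 in sum. LINC02904 had 0, 0.07 and 0.06 TPM in control and 2.63, 1.08 and 0.36 TPM in DKK1-SE-/- samples, 2 counts against 50. LINC00310 had 0, 0.23 and 0 TPM in control and 0.98, 1.15 and 0.99 TPM in DKK1-SE-/- samples, 2 counts against 37. All 3 were near 0 in control and above it in every DKK1-SE-/- sample. LINC00668 had 4 counts against 46. These 4 reached the level only through the DKK1-SE-/- samples, which chose them together with their direction, and the filter kept them out of the calls. The fit without a filter and the fits without any 1 of the control samples called all 4 up, a direction partly fixed by that choice.

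A high TPM could rest on very few reads. LINC02768, with 190 exonic bases, reached 24.9 TPM in 1 sample from 3 counts. LINC02802 reached 13 TPM in DKK1-SE-/- replicate 3 from 4.67 counts, where the ratio of its TPM to its CPM (the count scaled to library size) was 50.3, against 6.09 to 24.5 in the 4 other samples with a ratio. LINC01123 and LINC01106 shared 95.2% and 92.5% of their 31-base words with other genes, each with the other among them, and had log2 fold changes of 0.66 and -0.41 without being called (adjusted p = 0.0597 and 0.0991). LINC01106 was called with the GC offset, with and without the block, and without DKK1-SE-/- replicate 1, and LINC01123 was called without control replicate 1. Across members, log2 TPM correlated between samples of 1 genotype with r of 0.85 to 0.92 and between genotypes with r of 0.75 to 0.85. Over all genes these ranges were 0.983 to 0.99 and 0.973 to 0.98. Genes are not independent replicates, so no p is given.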
